A study of Mus musculus with 24 samples.

Results

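The genes described here encode the BBSome with its chaperonin-like assembly factors and regulators, the transition zone at the base of the cilium, and a small set of ciliary membrane trafficking proteins. They were chosen by name, as a list of 36 genes with no cut on a measured value, though earlier results of these data were known. Identifiers of 35 of them were matched among the 31053 gene identifiers of the count files, and Tctn2 was not analysed here. All 35 passed the filter on low counts, which was applied without regard to the list. The RNA came from retinal pigment epithelium (RPE) cells isolated from mice, the pigmented layer that serves the photoreceptors lying against it. Tags near the 3' end of polyadenylated transcripts were counted in 24 libraries. Mutant mice carried the floxed Ift20 allele together with the Dct-Cre driver, and control mice carried Dct-Cre as well, so that Cre was present in every animal. Dct is a pigment cell gene, and a driver of this kind is active in pigment cells. The ages were postnatal day 11 (P11) and day 29 (P29) and 3 months (3M), and every one of the 6 groups of genotype and age had 4 libraries. The background strain was mixed, sex was not recorded, and neither the copies of the floxed allele nor the number of animals behind a library is given in the labels. Replicates are numbered as biological ones, and the p-values measure only how far these libraries spread, part of which may be technical.

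The BBSome is a coat-like complex that carries membrane proteins into and out of the cilium along the intraflagellar transport trains, to which IFT20 belongs. The GTPase ARL6 recruits it to membranes, and the chaperonin-like proteins MKKS, BBS10 and BBS12 help to assemble it. The transition zone is the gate between the basal body and the ciliary shaft, built from an MKS module of membrane and associated proteins (tectonics, B9 proteins, CC2D2A, AHI1), from CEP290, and from an NPHP module with its RPGRIP1L scaffold. In photoreceptors the transition zone is drawn out into the connecting cilium, where RPGRIP1 holds RPGR. ARL3 is a GTPase that releases lipid-anchored proteins to the ciliary membrane, and INPP5E sets its phosphoinositides.

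Many ciliary genes are controlled by RFX transcription factors through a palindromic promoter element, the X-box, so the start regions of the genes were searched for it. RefSeq start regions on GRCm38.p6, spanning 250 bases before to 50 bases after an annotated start, were at hand for 34 of the 35 genes, Tmem67 being the exception. The letters GTNNCC and GNAAC with 3 bases between them (N being any base), read on both strands, were found in 11 of these 34 genes (32.4%), against 673 of all 27025 genes with a start region (2.49%). The shorter core GTTGCC, which lies inside many of these matches, was found in 14 of the 34 genes (41.2%), against 14.1% of all genes. The matches are shown because the list was not chosen for this sequence, each as the gene strand from 5′ to 3′ with the 14 matching letters in capitals and up to 8 neighbouring bases on either side.
Bbs1: ctgagctgGTTGCCAAGGCGACgcctggga
Bbs4: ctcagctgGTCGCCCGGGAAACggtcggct
Bbs7: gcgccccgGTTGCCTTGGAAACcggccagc
Ahi1: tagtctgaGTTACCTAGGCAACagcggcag
B9d2: aacctgctGTTGCCCCAGCAACagtcgggg
Mks1: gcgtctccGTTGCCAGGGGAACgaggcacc
Tctn1: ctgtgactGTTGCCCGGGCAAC
Tmem216: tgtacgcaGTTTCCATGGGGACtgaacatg
Tmem231: cgccgtcgGTTGCCGTGGAGACtcggcgct
Tmem237: tagtcagcGTTGCCATGGCGACgcctccgg
Nphp4: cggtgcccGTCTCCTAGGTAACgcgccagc

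BBSome subunits (Bbs1, Bbs4, Bbs7), MKS module genes (Ahi1, B9d2, Mks1, Tctn1, Tmem216, Tmem231, Tmem237) and Nphp4 held a match. The other 23 genes searched held none, Cep290, Rpgr, Rpgrip1, Ofd1, Invs, Arl3 and Inpp5e among them. The BBSome subunits Bbs2, Bbs5, Bbs9, Ttc8 and Bbip1 and the MKS module genes B9d1, Cc2d2a and Tctn3 were also without a match. The match of Ahi1 lay at chr10:20952568-20952581 on the forward strand, 21 bases after the start, and that of Tmem237 at chr1:59120110-59120123 on the reverse strand, 27 bases before it. The match of Bbs7 lay at chr3:36613497-36613510 on the reverse strand, 121 bases before the start. The Tctn1 match ended with the searched region, so no bases follow it. B9d1, Bbs5, Lztfl1 and Tctn3 were among the genes that held the short core alone. A match is a description of letters, and no binding was measured.

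**Figure D1:**
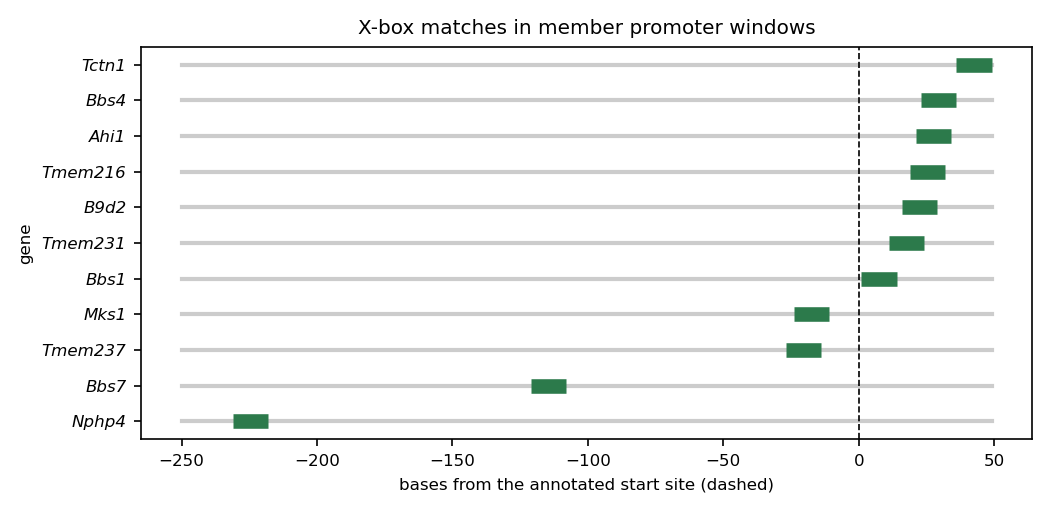
Position of the X-box letters in the start regions of the 11 genes that hold them. Each grey line is a searched region in bases from the annotated start (dashed), and each green block is a match of 14 bases, 7 of them after the start and 4 before it.

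Library totals ran from 1513440 to 2889946 counts over genes, so 3 counts, the floor used here, equal 1.04 to 1.98 CPM, the unit of all levels below, a count scaled by the size of its library. That floor covers counting error only. Ift20, the floxed gene and a subunit of the intraflagellar transport B complex, had 76.7, 94.2, 90.7 and 80.8 CPM in P11 mutants and 106, 93.8, 60.7 and 149.8 CPM in P11 controls, and the groups overlapped (log2 fold change -0.27, SE 0.16, edgeR adjusted p = 0.352). In P29 mutants it had 70.1, 57.9, 88.8 and 68.6 CPM, against 121, 84.9, 124 and 102 CPM in P29 controls. It fell in mutants at this age, although the highest mutant library exceeded the lowest control library (log2 fold change -0.60, SE 0.15, edgeR adjusted p = 0.0112). In 3M mutants it had 115, 116, 117 and 97.4 CPM and in 3M controls 118, 159.9, 126 and 133 CPM. Every mutant library lay below every control library at 3M, the closest pair being almost level, and the difference did not pass (log2 fold change -0.26, SE 0.15, edgeR adjusted p = 0.547). The floxed exons are not given in the labels, and a tag near the 3' end may lie outside them, so these values need not measure the deletion. All 18 RPE markers had counts in every group, 17 of them enough to be tested, and so did all 18 markers of rods, the photoreceptors of the neural retina. Summed rod marker levels were 19765 to 20263 CPM in P11 mutants against 16325 to 17439.7 in P11 controls, 19759 to 21150.2 in P29 mutants against 14164 to 14701 in P29 controls, and 9168 to 9610.1 in 3M mutants against 5223 to 5675 in 3M controls. Of 10 markers of motile cilia 3 had enough counts to be tested, and none was called between genotypes by edgeR.

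**Figure D2:**
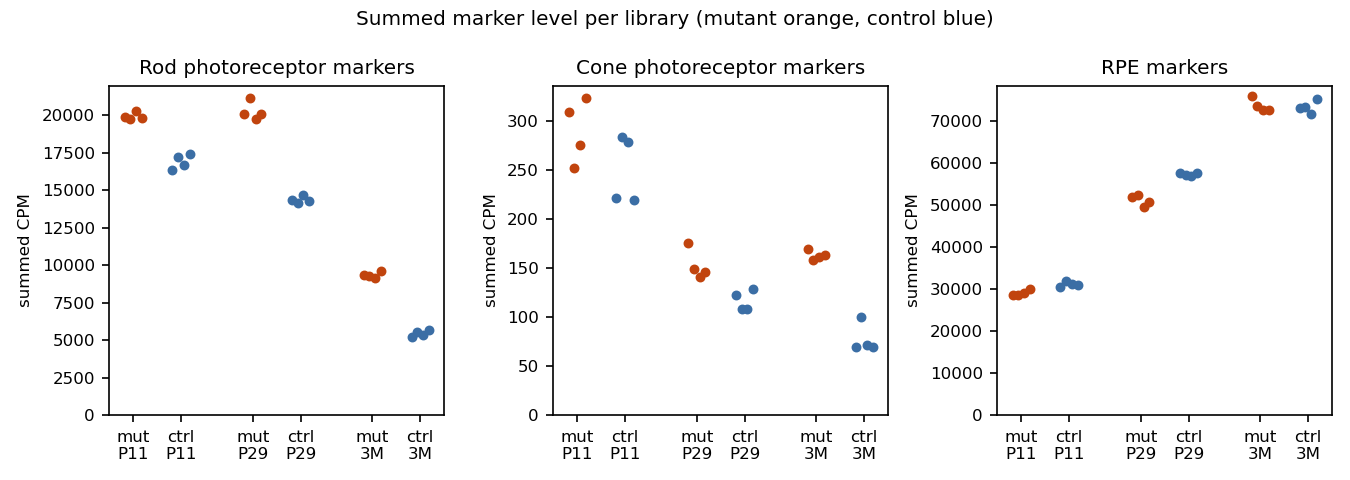
Summed CPM of rod (18 genes), cone (8 genes) and RPE (18 genes) markers in each of the 24 libraries, mutants in orange left of controls in blue at each age. Rod sums in mutants lay above those in controls at every age, and the RPE sums were higher at each later age in both genotypes.

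At P11, 5 of the 35 genes were higher in mutants and none was lower, and among the 5 were Ahi1, Cep290, Rpgrip1 and Rpgr of the transition zone. That is 14.3% of the genes, where 6.93% of the 12303 genes tested were called, 3.26% higher and 3.67% lower, a call being an edgeR adjusted p under 0.05. The median log2 fold change of the 35 genes was 0.16, and that of all genes tested was 0.00. None of the 8 BBSome subunits, the 3 chaperonin-like genes or the 2 regulators passed the test.

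Ahi1, whose product jouberin is a scaffold of the MKS module, lies at chr10:20952547-21080429 on the forward strand of GRCm38. It had 232, 234, 183 and 240.4 CPM in P11 mutants and 184, 135, 128 and 159 CPM in P11 controls. Mutant 3 stood level with control 1, the highest of the controls, and the other 3 mutant libraries stood above all controls. Ahi1 was higher in mutants with a log2 fold change of 0.54 (SE 0.11, edgeR adjusted p = 0.000255).

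Cep290, whose product bridges the microtubules and the membrane of the transition zone, lies at chr10:100487558-100574840 on the forward strand. It had 353, 352, 328 and 351 CPM in P11 mutants and 217, 261, 251 and 277 CPM in P11 controls. Every mutant library lay above every control library (log2 fold change 0.46, SE 0.11, edgeR adjusted p = 0.00446). Its last 500 bases overlap 4930430F08Rik on the other strand, and no source used here states whether reads were counted by strand. That neighbour averaged 9.67 CPM over all libraries and did not pass the test at P11 (adjusted p = 0.939).

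Rpgrip1, the scaffold that anchors RPGR in the photoreceptor connecting cilium, lies at chr14:52110704-52163546 on the forward strand. It had 1070.2, 1153, 1063 and 1174 CPM in P11 mutants and 797, 895, 893 and 943 CPM in P11 controls, with no overlap (log2 fold change 0.34, SE 0.08, edgeR adjusted p = 0.0018). Its 3' end overlaps Supt16, on the other strand, which averaged 78.6 CPM over all libraries and whose own P11 log2 fold change of 0.32 had an adjusted p of 0.247. Rpgr, whose product regulates traffic through the connecting cilium, lies at chrX:10073621-10216920 on the reverse strand. It had 76.7, 64.1, 70.1 and 101 CPM in P11 mutants and 40.8, 57.1, 40.5 and 49.4 CPM in P11 controls, also without overlap (log2 fold change 0.73, SE 0.24, edgeR adjusted p = 0.0421). Srpx, on the same strand, reaches into the last 500 bases of Rpgr, so their tags may not be told apart there, and it averaged 0.755 CPM over all libraries, too low to be tested. The Rpgr call was lost without P11 control 1, 3 or 4 or P11 mutant 1, 3 or 4 (adjusted p = 0.0552 to 0.22), and without a filter on low counts (adjusted p = 0.0545).

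Without P11 control 1 or P11 mutant 4, 3 of the 35 genes were called. Arl3, which releases lipid-anchored cargo inside the cilium, had 128, 176, 170.2 and 148 CPM in P11 mutants and 150.4, 169.6, 135 and 178 CPM in P11 controls, and these overlapped throughout (log2 fold change -0.03, SE 0.11, edgeR adjusted p = 0.946).

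The groups did not overlap at P11 for 7 of the 35 genes, all with mutants above controls, where 5.36% of all genes tested had all mutants above and 4.97% all mutants below the controls. They included the called genes Cep290, Rpgrip1 and Rpgr, and Bbs9, Cc2d2a and Tmem231, which did not pass the test. Cc2d2a, a C2-domain protein of the MKS module, averaged 114 ± 14.8 CPM in P11 mutants and 83.1 ± 10.9 CPM in P11 controls (SD, n = 4 each), with a log2 fold change of 0.46 (SE 0.16, edgeR adjusted p = 0.0598). Bbs9, a core subunit of the BBSome, averaged 56.8 ± 7.82 CPM in P11 mutants and 39.1 ± 9.06 CPM in P11 controls (log2 fold change 0.53, SE 0.25, edgeR adjusted p = 0.224). The estimate of B9d1, a B9-domain protein of the MKS module, was the highest of the list at 1.21 ± 0.45 (log2 fold change ± SE), on means of 19.5 ± 8.62 CPM in P11 mutants and 8.19 ± 3.86 CPM in P11 controls, and did not pass (adjusted p = 0.0908).

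Other measures moved with genotype at P11. RPE markers summed to 28553 to 29938 CPM in P11 mutants against 30552 to 31853 CPM in P11 controls, without overlap, with 8 of 17 called lower and none higher. Of the 18 rod markers 7 were higher in mutants and none was lower, with log2 fold changes from -0.24 to 0.68 over the list, among them Sag (0.36) and Rom1 (0.68). Endothelial markers summed to 183 to 233 CPM in P11 mutants against 407 to 426 CPM in P11 controls, with 5 of 11 called lower. Myelin markers summed to 41.8 to 64.97 CPM in P11 mutants against 347 to 473 CPM in P11 controls, with all 5 that were tested called lower. Pericyte markers summed to 111 to 160.1 CPM in P11 mutants against 239.6 to 291 CPM in P11 controls, with 3 of 6 called lower, and 3 of 8 lens, 2 of 7 fibroblast and 2 of 6 tested Müller glia markers were also lower. Blood cell markers summed to 26695 to 30837 CPM in P11 mutants against 24512 to 26528 CPM in P11 controls, with 2 of 7 called higher and none lower. Of 7 tested cone markers 1 was higher, and of 12 inner retina markers 1 was higher and 1 lower. The mitochondrial share of gene counts was 10.8% ± 0.375 in P11 mutants and 7.81% ± 0.703 in P11 controls, and reads outside annotated features made up 27.03% ± 0.396 of all entries in P11 mutants and 23.4% ± 0.577 in P11 controls (SD, n = 4 each). The part of these differences in the results on the list was not tested. In bulk RNA of this kind, fewer cells of a type and less RNA per cell cannot be told apart.

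**Figure D3:**
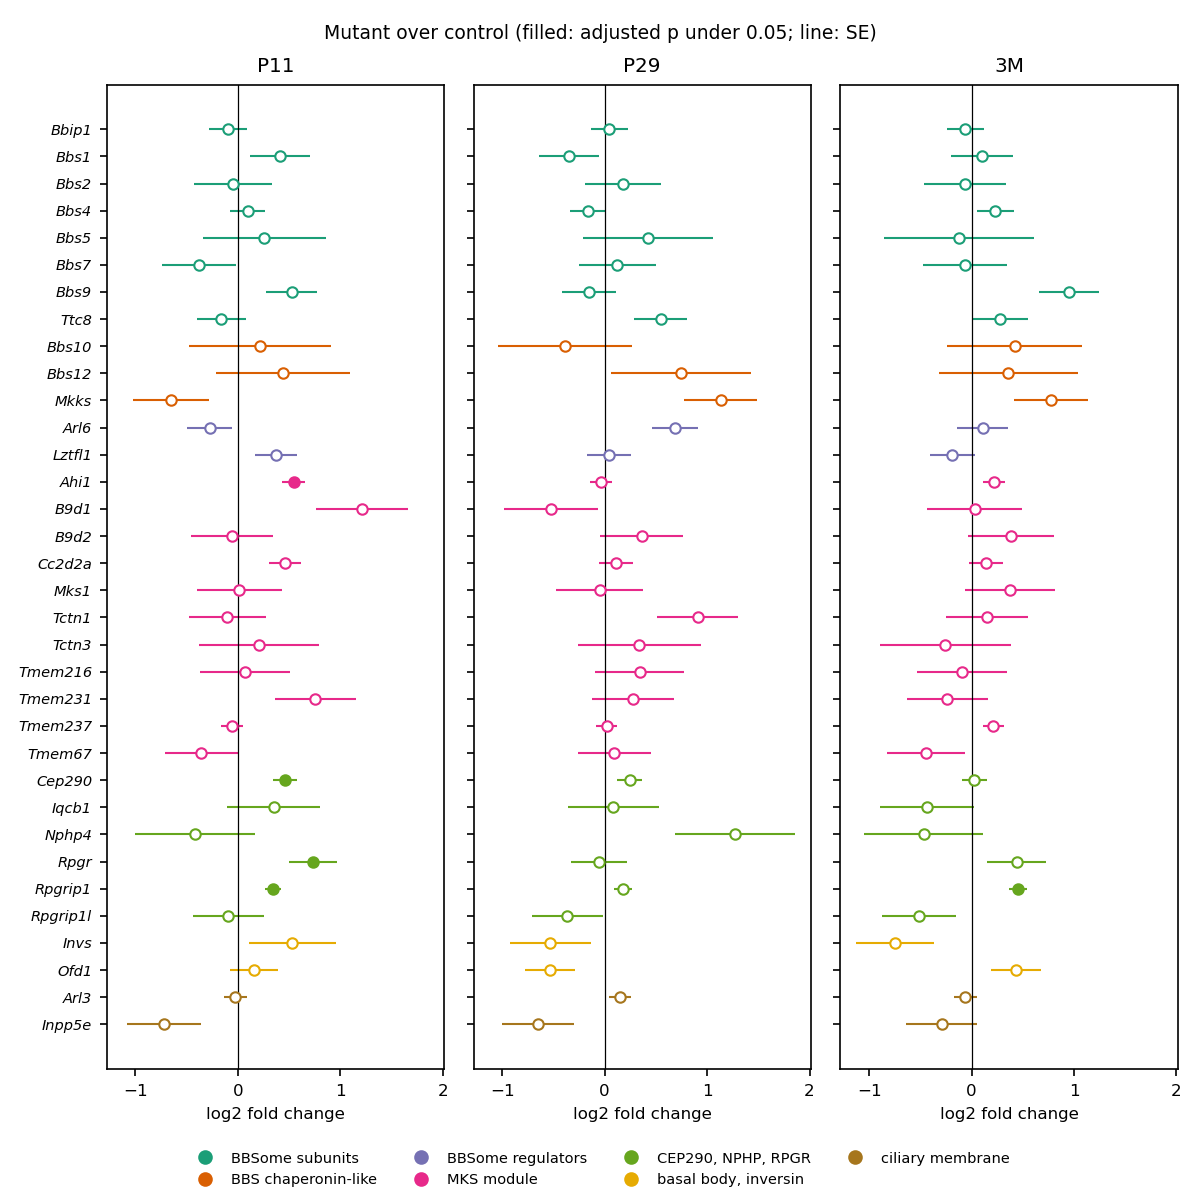
Log2 fold change of mutants over controls for 34 of the 35 genes at P11, P29 and 3M, coloured by role, with the SE as a line and filled points where the edgeR adjusted p was under 0.05. Filled points number 4 at P11, 0 at P29 and 1 at 3M, all to the right of 0.

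At P29 none of the 35 genes passed edgeR's test between genotypes, where 2.84% of all genes tested did, 1.63% higher and 1.21% lower in mutants. At an unadjusted p under 0.05 there were 9, where 11.4% of all genes stood below it. DESeq2 called 2 (Arl6 and Mkks) and voom with quality weights called 1 (Mkks), where either tool called 3.4% of all genes. A fit to the libraries of this age alone called Arl6 and Mkks as well, and 4.03% of the genes it tested. Mkks was called without P29 control 2, and Arl6 without P29 mutant 1. The median log2 fold change of the list was 0.11, and that of all genes tested was 0.00.

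Mkks, a chaperonin-like assembly factor of the BBSome at chr2:136873780-136891389 on the reverse strand, had 23.5, 17.3, 25.6 and 19.99 CPM in P29 mutants and 12.1, 13.9, 7.01 and 5.94 CPM in P29 controls. All mutant libraries lay above all control libraries, with a log2 fold change of 1.13 (SE 0.36, edgeR adjusted p = 0.0654). Arl6, the GTPase that recruits the BBSome to membranes, had 31.8, 51.6, 38.9 and 54.5 CPM in P29 mutants and 26.4, 26.3, 25.8 and 31.7 CPM in P29 controls. Its lowest mutant library lay just above its highest control library (log2 fold change 0.69, SE 0.23, edgeR adjusted p = 0.0833). Ofd1, a centriolar protein of the basal body, had 16.6, 17.7, 19.6 and 23.1 CPM in P29 mutants and 32.1, 23.9, 29.1 and 26.7 CPM in P29 controls, and its lower values in mutants did not pass (log2 fold change -0.54, SE 0.25, edgeR adjusted p = 0.36). These were the 3 of the 35 genes without overlap at P29, 2 with mutants above and 1 with mutants below, where 3.67% of all genes had mutants above and 4.09% below.

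The transition zone genes called at P11 gave smaller estimates of mutants over controls at P29, -0.04 ± 0.11 for Ahi1, 0.24 ± 0.12 for Cep290, 0.18 ± 0.08 for Rpgrip1 and -0.05 ± 0.27 for Rpgr (log2 fold change ± SE). The change in the genotype effect was tested itself, as the effect at P29 minus that at P11, and 2 of the 35 genes passed, Mkks in the positive and Ahi1 in the negative direction, where 2.63% of all genes were called, 1.45% positive and 1.18% negative. For Ahi1 the difference was -0.58 (SE 0.15, edgeR adjusted p = 0.0176), on means of 168 ± 21.99 CPM in P29 mutants and 172 ± 10.2 in P29 controls. It was lost without P11 control 3 (adjusted p = 0.0589) or P29 mutant 4 (adjusted p = 0.0793). For Mkks the difference was 1.78 (SE 0.51, edgeR adjusted p = 0.0348), on means of 9.44 ± 3.10 CPM in P11 mutants and 14.7 ± 3.80 in P11 controls, and 21.6 ± 3.68 in P29 mutants and 9.76 ± 3.89 in P29 controls. The Mkks call was lost without P11 control 1, P11 mutant 1, 2 or 4, P29 control 3 or 4, or P29 mutant 1 or 3 (adjusted p = 0.0524 to 0.11), without a filter on low counts (adjusted p = 0.0584) and in the fit to these 16 libraries (adjusted p = 0.0533). Cep290, Rpgrip1 and Rpgr did not pass this test (adjusted p = 0.62, 0.585 and 0.302), so a difference of their genotype effects between these ages was not shown.

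Rod markers were higher in mutants for 16 of 18 genes at P29. RPE markers summed to 49434 to 52252 CPM in P29 mutants and 56867 to 57554 CPM in P29 controls, with 3 of 17 called higher and 4 lower. Lens markers, among them crystallins, summed to 867 to 953 CPM in P29 mutants and 25.1 to 40.6 CPM in P29 controls, and all 8 were called higher. The part of rod, RPE and lens transcripts in the values of Mkks and Arl6 was not tested.

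At 3M, 1 of the 35 genes was higher in mutants and none was lower (2.86%, where 2.61% of all genes were called, 2.13% higher and 0.48% lower). The gene was Rpgrip1, with 269, 223, 255 and 208 CPM in 3M mutants and 187, 191, 166 and 155 CPM in 3M controls. Every mutant library lay above every control library (log2 fold change 0.45, SE 0.08, edgeR adjusted p = 8.15e-05), and the call held when any of these 8 libraries was left out. At P29 Rpgrip1 had 239, 215, 212 and 243 CPM in mutants and 192, 191, 205 and 214 CPM in controls, where 1 mutant library lay below the highest control (log2 fold change 0.18, SE 0.08, edgeR adjusted p = 0.375). The median log2 fold change of the list at 3M was 0.10, and that of all genes tested was 0.03.

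Bbs9 had 16.03, 15.7, 24.3 and 20.96 CPM in 3M mutants and 14.3, 6.32, 9.59 and 9.29 CPM in 3M controls. The groups did not overlap, and the difference missed edgeR's threshold (log2 fold change 0.95, SE 0.29, edgeR adjusted p = 0.0547). DESeq2 called it beside Rpgrip1, and 2.82% of all genes, and edgeR called it without 3M control 1. Mkks, Ahi1 and Ofd1 also had all mutant libraries above all controls at 3M, and Invs, whose product inversin marks the compartment next to the transition zone, had all below. With Bbs9 and Rpgrip1 that made 5 of the 35 genes with all mutants above and 1 with all below, where 5.07% and 3% of all genes did so. The log2 fold changes of Mkks, Ahi1, Ofd1 and Invs were 0.78 ± 0.36, 0.22 ± 0.11, 0.43 ± 0.25 and -0.75 ± 0.38 (± SE), with adjusted p-values of 0.369, 0.411, 0.541 and 0.46. None of the 35 genotype effects differed between 3M and P29 in edgeR's test, where 0.853% of all genes did (0.61% positive, 0.244% negative). Of the 35, 4 had an unadjusted p under 0.05, where 9.27% of all genes did, and DESeq2 and voom called 0. Rod markers were higher in 3M mutants for 17 of 18 genes. Their median log2 fold change was 0.78 and that of Sag was 1.13, beside 0.45 for Rpgrip1. Cone markers summed to 158 to 170 CPM in 3M mutants against 69.4 to 100.3 CPM in 3M controls. Of 7 tested cone markers 3 were called higher, and of 12 inner retina markers 4, with none lower. The part of these transcripts in the Rpgrip1 result was not tested.

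**Figure D4:**
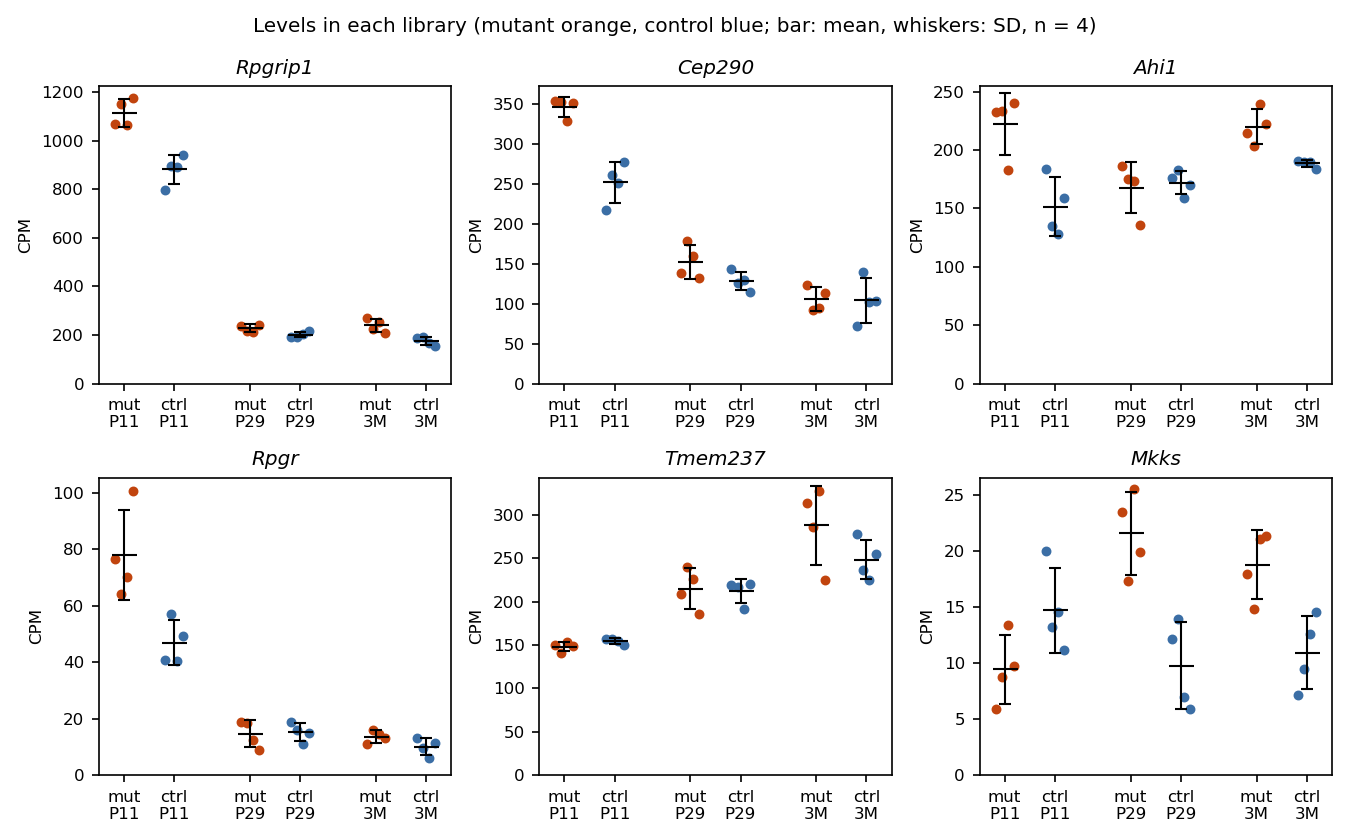
CPM in each library, on linear axes from 0, for Rpgrip1, Cep290, Ahi1, Rpgr, Tmem237 and Mkks, with mutants in orange left of controls in blue at P11, P29 and 3M (bar and whiskers, mean and SD of 4 libraries). Rpgrip1, Rpgr and Cep290 are highest at P11 in both genotypes, and Tmem237 averages highest at 3M.

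More of these genes were called between ages than between genotypes. From P11 to P29, 3 of the 35 were higher and 11 were lower in mutants (8.57% and 31.4%), where 31.7% of all genes were called, 16.4% higher and 15.2% lower. In controls 3 were higher and 9 were lower (8.57% and 25.7%), where 32% of all genes were called, 16.5% higher and 15.6% lower, and with median-of-ratios size factors the control split was 1 higher and 10 lower. The median log2 fold change of P29 over P11 was -0.42 in mutants and -0.50 in controls, against -0.01 and -0.02 over all genes tested. The genes called lower in both genotypes were Ttc8, Lztfl1, Cc2d2a, Cep290, Rpgr and Rpgrip1, which make up 54.5% of the mutant list and 66.7% of the control list, where 63.6% and 62.2% of all genes called lower in mutants and in controls were lower in both. Arl3 and Tmem237 were called higher in both, 66.7% of either list of 3, against 68.2% of the mutant and 68.1% of the control list over all genes.

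The steepest falls in both genotypes were those of Rpgrip1 and Rpgr. Rpgrip1 had 239, 215, 212 and 243 CPM in P29 mutants against 1070.2, 1153, 1063 and 1174 CPM in P11 mutants (log2 fold change -2.30, SE 0.08, edgeR adjusted p = 9.27e-45). In controls it had 192, 191, 205 and 214 CPM at P29 against 797, 895, 893 and 943 CPM at P11 (log2 fold change -2.14, SE 0.08, edgeR adjusted p = 4.66e-42). The ages were far apart in both genotypes and no library of one age came near those of the other. Rod markers summed to 19759 to 21150.2 CPM in P29 mutants against 19765 to 20263 CPM in P11 mutants, and these ranges overlap. In controls the rod sum was 14164 to 14701 CPM at P29 against 16325 to 17439.7 CPM at P11.

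Rpgr had 18.9, 18.5, 12.4 and 9.01 CPM in P29 mutants against 76.7, 64.1, 70.1 and 101 CPM in P11 mutants, and 18.9, 15.9, 11.1 and 14.9 CPM in P29 controls against 40.8, 57.1, 40.5 and 49.4 CPM in P11 controls. The P29 libraries lay below the P11 libraries in both genotypes. Its log2 fold change was -2.41 (SE 0.26, adjusted p = 1.59e-13) in mutants and -1.62 (SE 0.26, adjusted p = 1.7e-07) in controls. Cep290 had 138, 178, 159 and 132 CPM in P29 mutants against 353, 352, 328 and 351 CPM in P11 mutants, and 143, 126, 129 and 115 CPM in P29 controls against 217, 261, 251 and 277 CPM in P11 controls. Again no library overlapped between ages, with log2 fold changes of -1.19 (SE 0.12, adjusted p = 7.61e-15) in mutants and -0.97 (SE 0.12, adjusted p = 6.11e-11) in controls.

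Among MKS module genes Cc2d2a had 53.5, 55.9, 71.7 and 59.6 CPM in P29 mutants against 105, 110.3, 105 and 136 CPM in P11 mutants (log2 fold change -0.92, SE 0.16, edgeR adjusted p = 9.95e-07). The P29 values lay well below all P11 values in mutants, and in controls, where 1 P29 library exceeded the lowest at P11, the log2 fold change was -0.58 (SE 0.16, adjusted p = 0.00311). Tmem237, a membrane protein of the transition zone, ran the other way, with 208, 240.3, 226 and 185 CPM in P29 mutants against 149.9, 140.4, 153 and 149 CPM in P11 mutants, and 219.5, 218, 191 and 220.4 CPM in P29 controls against 157, 156, 154 and 149.8 CPM in P11 controls. Every P29 library was above every P11 library in both genotypes, with log2 fold changes of 0.54 (SE 0.10, adjusted p = 1.2e-05) in mutants and 0.46 (SE 0.10, adjusted p = 0.000211) in controls. Ahi1 and B9d1 fell in mutants (-0.41 and -1.47, adjusted p = 0.0016 and 0.00755), while in controls their log2 fold changes were 0.17 ± 0.11 and 0.27 ± 0.46 and did not pass. Tctn1, a tectonic of the MKS module, fell in controls (-1.26, SE 0.40, adjusted p = 0.00876), a call lost without P11 control 2 or P29 control 1 or 2 (adjusted p = 0.0506 to 0.0594).

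Of the BBSome subunits Ttc8, also known as Bbs8, had 28.6, 31.5, 20.9 and 28.999 CPM in P29 mutants against 52.1, 53.6, 37.5 and 38.6 CPM in P11 mutants, and 19.3, 21.9, 16.2 and 17.8 CPM in P29 controls against 60.2, 58.4, 55.7 and 28.7 CPM in P11 controls. It was lower at P29 in every library of both genotypes, although P11 control 4 stood apart from the other 3. The log2 fold change was -0.72 (SE 0.25, adjusted p = 0.0165) in mutants and -1.43 (SE 0.25, adjusted p = 2e-06) in controls, and the mutant call was lost without P11 mutant 1 or 2 or P29 mutant 3 (adjusted p = 0.0615 to 0.0786). Bbs9 had 17.98, 35.5, 17.5 and 28.999 CPM in P29 mutants against 51.6, 67.2, 50.03 and 58.5 CPM in P11 mutants, with no overlap (log2 fold change -1.18, SE 0.25, edgeR adjusted p = 8.64e-05), and in controls its log2 fold change was -0.50 (SE 0.26, adjusted p = 0.133). Bbs7 fell in controls (-1.09, SE 0.37, adjusted p = 0.0181), a call lost without P11 control 2 or P29 control 1 or 3 (adjusted p = 0.0572 to 0.0923).

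Among the regulators, Arl6 had 26.4, 26.3, 25.8 and 31.7 CPM in P29 controls against 61.8, 65.6, 53.2 and 60.6 CPM in P11 controls, with no overlap (log2 fold change -1.13, SE 0.23, edgeR adjusted p = 2.18e-05). In mutants its P29 and P11 libraries overlapped, with a log2 fold change of -0.17 (SE 0.22, adjusted p = 0.613). The Arl6 genotype effect at P29 minus that at P11 was 0.96 (SE 0.31, adjusted p = 0.0783) on the log2 scale, which did not pass. Lztfl1, a leucine zipper protein that restrains BBSome entry into cilia, fell in both, with a log2 fold change of -0.90 (SE 0.21, adjusted p = 0.000261) in mutants and -0.57 (SE 0.21, adjusted p = 0.0278) in controls. The control call of Lztfl1 was lost without P11 control 1 or 4 or P29 control 3 or 4 (adjusted p = 0.0581 to 0.126) and with voom (adjusted p = 0.0627). Mkks was higher at P29 in mutants, at 23.5, 17.3, 25.6 and 19.99 CPM against 5.90, 8.72, 13.4 and 9.75 CPM in P11 mutants, with no overlap (log2 fold change 1.18, SE 0.36, edgeR adjusted p = 0.00675), and in controls its log2 fold change was -0.60 (SE 0.37, adjusted p = 0.217).

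For the basal body and the ciliary membrane, Ofd1 had 16.6, 17.7, 19.6 and 23.1 CPM in P29 mutants against 46.2, 58.01, 39.3 and 43.5 CPM in P11 mutants. No library overlapped (log2 fold change -1.27, SE 0.24, edgeR adjusted p = 8.79e-06), and in controls, also without overlap, the log2 fold change was -0.58 (SE 0.24, adjusted p = 0.0519). Arl3 averaged 216 ± 25.4 CPM in P29 mutants against 155 ± 21.8 in P11 mutants and 195 ± 5.23 in P29 controls against 158 ± 19.2 in P11 controls (SD, n = 4 each), with log2 fold changes of 0.48 (SE 0.11, adjusted p = 0.000282) in mutants and 0.30 (SE 0.11, adjusted p = 0.0286) in controls. The control rise of Arl3 was lost with median-of-ratios size factors (adjusted p = 0.106), with DESeq2, in the fit to these 8 libraries, and without P11 control 1 or 3 or P29 control 1 or 2 (adjusted p = 0.0502 to 0.119). The Invs rise in controls (1.04, SE 0.41, adjusted p = 0.0435) was lost with median-of-ratios size factors (adjusted p = 0.0624), voom, no filter and the fit to these 8 libraries, and without P11 control 1, 2 or 3 or P29 control 1, 2 or 4 (adjusted p = 0.0561 to 0.123).

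Other measures moved with age. RPE markers summed to 49434 to 52252 CPM in P29 mutants against 28553 to 29938 CPM in P11 mutants, and to 56867 to 57554 CPM in P29 controls against 30552 to 31853 CPM in P11 controls. Markers of blood cells, mostly globins, summed to 3744 to 4044 CPM in P29 mutants against 26695 to 30837 CPM in P11 mutants, and to 2709 to 3372 CPM in P29 controls against 24512 to 26528 CPM in P11 controls. Inner retina markers summed to 655 to 746 CPM in P29 mutants against 1081 to 1205 CPM in P11 mutants. In controls they summed to 709.8 to 799 CPM at P29 against 988 to 1089 CPM at P11. Of these 12 markers, 10 were called lower and 1 higher in mutants, and 11 lower and 1 higher in controls. Their median log2 fold changes were -2.75 in mutants and -2.86 in controls. Slc6a9, the most abundant of them, averaged 453 CPM in P29 mutants against 312 CPM in P11 mutants. In controls it averaged 524 CPM at P29 against 378 CPM at P11. Lens markers summed to 867 to 953 CPM in P29 mutants against 36.6 to 55.4 CPM in P11 mutants, with all 8 called higher. In controls they summed to 25.1 to 40.6 CPM at P29 against 82.2 to 125 CPM at P11, with 5 of 8 called lower. Of 11 endothelial markers, all were called lower in controls and 1 in mutants, with none higher. Of 5 tested myelin markers, all were lower in controls, while in mutants 2 were higher and 2 lower. The part of these shifts in the age results was not tested.

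**Figure D5:**
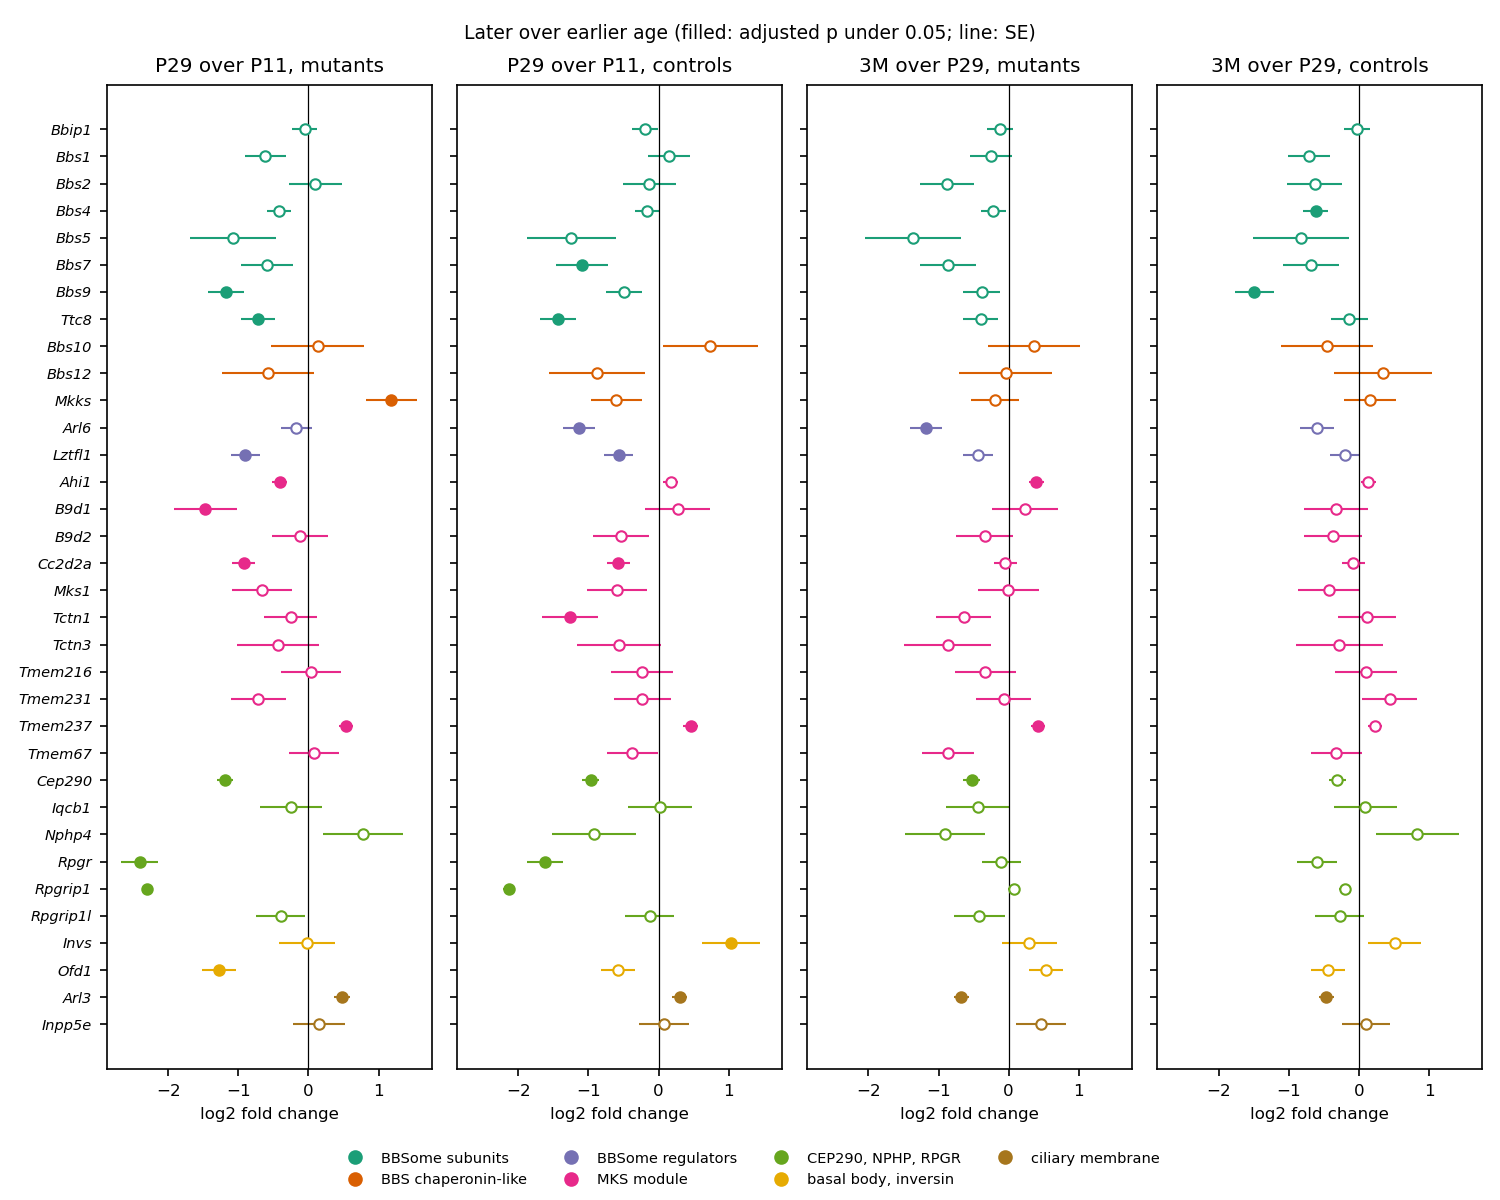
Log2 fold change of the later over the earlier age for 34 of the 35 genes, in mutants and controls for P29 over P11 and 3M over P29, with the SE as a line and filled points where the edgeR adjusted p was under 0.05. Rpgrip1 and Rpgr lie farthest to the left in both panels of P29 over P11.

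From P29 to 3M, 2 of the 35 genes were higher and 4 were lower in mutants (5.71% and 11.4%), where 12.7% of all genes were called, 5.44% higher and 7.27% lower. In controls 0 were higher and 4 were lower (11.4%), where 12% of all genes were called, 3.49% higher and 8.5% lower. This step shares its P29 libraries with the step before it. The median log2 fold change was -0.34 in mutants and -0.28 in controls, against -0.01 and -0.03 over all genes tested. Of the 4 lower genes of either genotype, 2 were shared, Arl3 among them, where 61.5% of all genes lower in mutants and 52.6% of those lower in controls were shared.

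Arl3 had 126, 142, 127 and 148 CPM in 3M mutants against 201, 189, 232 and 243 CPM in P29 mutants, and 132, 154, 147 and 133 CPM in 3M controls against 196, 200.03, 188 and 196 CPM in P29 controls. All 3M libraries lay below all P29 libraries of the same genotype. The log2 fold change was -0.67 (SE 0.11, adjusted p = 1.19e-06) in mutants and -0.46 (SE 0.11, adjusted p = 0.00134) in controls.

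Arl6 had 13.7, 21.3, 25.2 and 18.3 CPM in 3M mutants against 31.8, 51.6, 38.9 and 54.5 CPM in P29 mutants, with no overlap (log2 fold change -1.18, SE 0.23, edgeR adjusted p = 6.38e-05), and in controls, where the ages did not overlap either, its log2 fold change was -0.60 (SE 0.24, adjusted p = 0.0971). Bbs9 had 14.3, 6.32, 9.59 and 9.29 CPM in 3M controls against 16.8, 34.7, 26.2 and 34.7 CPM in P29 controls, all lower at 3M (log2 fold change -1.49, SE 0.28, edgeR adjusted p = 2.92e-05), and in mutants its log2 fold change was -0.39 (SE 0.27, adjusted p = 0.418). Bbs4, a core BBSome subunit, had 37.9, 42.5, 47.9 and 44.9 CPM in 3M controls against 74.6, 66.1, 47.6 and 77.3 CPM in P29 controls. Its highest 3M library lay just above its lowest P29 library, P29 control 3 (log2 fold change -0.61, SE 0.18, edgeR adjusted p = 0.0101), and the call was lost without P29 control 1 or 4 (adjusted p = 0.0513 and 0.0541). Without P29 control 1, 2 of the 35 genes were called in controls at this step, Arl3 and Bbs9. In mutants the log2 fold change of Bbs4 was -0.22 (SE 0.18, adjusted p = 0.513). The 3' end of Bbs4 overlaps Adpgk, on the other strand, which averaged 8.89 CPM over all libraries.

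Cep290 had 123, 91.9, 94.3 and 113 CPM in 3M mutants against 138, 178, 159 and 132 CPM in P29 mutants, without overlap (log2 fold change -0.52, SE 0.12, edgeR adjusted p = 0.000836), and in controls its log2 fold change was -0.31 (SE 0.12, adjusted p = 0.0923). Tmem237 had 314, 286, 328 and 225 CPM in 3M mutants against 208, 240.3, 226 and 185 CPM in P29 mutants. It was higher on average at 3M, with overlap of the lowest 3M and the highest P29 library (log2 fold change 0.42, SE 0.10, edgeR adjusted p = 0.00123), and in controls the log2 fold change was 0.23 (SE 0.10, adjusted p = 0.14). Ahi1 had 215, 204, 239 and 223 CPM in 3M mutants against 186, 176, 174 and 136 CPM in P29 mutants, all higher at 3M (log2 fold change 0.39, SE 0.11, edgeR adjusted p = 0.00607). Its call was lost without P29 mutant 4 (adjusted p = 0.0747), and in controls the log2 fold change was 0.13 (SE 0.11, adjusted p = 0.52). Rod markers summed to 9168 to 9610.1 CPM in 3M mutants against 19759 to 21150.2 CPM in P29 mutants. In controls they summed to 5223 to 5675 CPM at 3M against 14164 to 14701 CPM at P29. Lens markers summed to 14.5 to 26.5 CPM in 3M mutants against 867 to 953 CPM in P29 mutants, with all 8 called lower. In controls 5 of the 8 were called lower. Of 11 endothelial markers, 10 were lower in mutants and 7 in controls, with none higher. RPE markers summed to 72501 to 75864 CPM in 3M mutants against 49434 to 52252 CPM in P29 mutants. In controls they summed to 71670 to 75078 CPM at 3M against 56867 to 57554 CPM at P29. The part of these markers in the results of this step was not tested.

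In all, 19 of the 35 genes passed the test in at least 1 of the 9 comparisons, which is 54.3%, where 48% of all genes tested did, and 16 passed in none. The 16 were the BBSome subunits Bbs1, Bbs2, Bbs5 and Bbip1, the chaperonin-like Bbs10 and Bbs12, the MKS module genes B9d2, Mks1, Tctn3, Tmem67, Tmem216 and Tmem231, the NPHP module genes Nphp4, Iqcb1 and Rpgrip1l, and Inpp5e. Ahi1 was the only one of the 5 genes higher in P11 mutants with an X-box match, where 11 of the 34 searched held one. Of those 11 genes 5 were called in at least 1 comparison, and of the other 23 searched 14 were. Low counts limit what could be seen: 15 of the 35 genes stayed under 20 CPM in the mean of every group, and Bbs10 and Nphp4 each had a P11 control library with no count. For 11 of the 35 genes another gene on the other strand reaches into the last 500 bases, and for Rpgr a gene on the same strand does. Where the tags lie was not measured, and many of these genes have several annotated 3' ends, 19 for Rpgrip1. Bbip1, a small BBSome subunit, was better covered, at 59.6 ± 14.999 CPM in P11 mutants, 63.7 ± 12.5 in P11 controls, 57.4 ± 10.8 in P29 mutants, 55.7 ± 6.95 in P29 controls, 52.6 ± 8.08 in 3M mutants and 54.9 ± 7.14 in 3M controls (SD, n = 4 each). Its log2 fold changes ran from -0.20 to 0.04 over the 7 comparisons of genotype and of age, with an SE of 0.18, so small changes were not detectable at this depth. Inpp5e, the phosphatase that shapes the lipid composition of the ciliary membrane, averaged 10.05 ± 3.58 CPM in P11 mutants and 16.7 ± 3.12 CPM in P11 controls, with a log2 fold change of -0.72 (SE 0.36, edgeR adjusted p = 0.27).

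Neighbouring parts of the pathway were counted from lists chosen by name. Of 14 other transition zone genes, 1 was higher in P11 mutants, Cspp1 (0.50, SE 0.14, adjusted p = 0.0124), a microtubule-associated protein of the cilium, and none passed at P29 or 3M between genotypes. Of 14 distal appendage and ciliation genes, 2 were higher in P11 mutants, Cep83 (1.59, SE 0.42, adjusted p = 0.00865), an appendage protein needed to dock the basal body, and Pcm1 (0.43, SE 0.13, adjusted p = 0.0204), the scaffold of centriolar satellites. Of 27 intraflagellar transport genes, 1 was higher in P11 mutants, Kif3a (0.66, SE 0.19, adjusted p = 0.0185), a motor subunit that moves the trains outward, and Ift20 alone was lower at P29.

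Of 17 tested genes of lipid-anchored cargo and membrane trafficking, Arl2 was lower in P11 mutants (-0.44, SE 0.13, adjusted p = 0.016) and Unc119 was higher in P29 mutants (0.38, SE 0.07, adjusted p = 2.97e-05). UNC119 carries myristoylated cargo that ARL3 releases, and it is abundant in photoreceptors. None of 10 tested Hedgehog pathway genes and none of 5 tested RFX genes was called between genotypes at any age by edgeR. Of the RFX factors that read the X-box, Rfx1 was lower at P29 than at P11 in mutants (-1.03, SE 0.27, adjusted p = 0.00168) and in controls (-0.93, SE 0.28, adjusted p = 0.00555), and Rfx7 was lower at 3M than at P29 in mutants (-0.90, SE 0.24, adjusted p = 0.00512).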

How the data were processed

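RNA of isolated RPE cells was measured by 3' tag sequencing in 24 libraries. The authors deposited whole-number read counts per gene in a file for each library. The submitters' processing notes name STAR and mm10, with no version, while the counter, its annotation and any use of strand or molecular identifiers were not given in the sources used here. Special entries that name no gene stayed out of totals and tests: reads outside features (18.6% to 27.5% of entries), ambiguous reads (0.192% to 0.322%) and reads aligned to several places (31.0% to 37.2%). A table of gene names paired 30934 of 31053 identifiers with a symbol, and coordinates are those of the GENCODE annotation of GRCm38.

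All genes went through edgeR's quasi-likelihood test (edgeR 4.0.16, R 4.3.3), with TMM factors (0.937 to 1.049), the filterByExpr filter by group (12303 genes) and a robust fit of 6 group means over all libraries, with Benjamini-Hochberg adjustment over all genes and calls at an adjusted p under 0.05. An SE is the size of a log2 fold change over the square root of its F statistic. CPM use TMM-scaled totals. Genotype was compared at each age, P29 with P11 and 3M with P29 in each genotype, and genotype effects between ages. Alternatives tried were size factors by median of ratios, DESeq2 1.42.0, voom of limma 3.58.1 with quality weights, no filter (19634 genes), 5 CPM in 4 libraries (11931 genes), only the libraries compared, a replicate block, and leaving out each library. Median-of-ratios factors moved the median of all genes by -0.0706 (log2) for P29 against P11 in controls and by less in the other comparisons. All 36 pairs of replicates differed beyond sampling noise (chi-square per gene 2.99 to 7.25). The fit was tested on simulated counts.

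By rule, values in every library are printed for called genes, up to 6 per comparison by adjusted p, and of each other list up to 3 called genes are named. Other genes named were chosen after their values were seen. The members and lists were chosen with earlier results of these data known. No protein sequences were used here. Single values of 1 gene of the list are not reported here, though the counts include it.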

Additional observations from a re-analysis of the deposited data

Results flagged for a closer look

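Among 270 groups of 4 libraries (the 35 genes, Ift20 and 9 marker sums, in 6 groups each), 15 held a library far from the other 3, by Dixon's criterion on the gap to its nearest neighbour. Chance alone flags about 1 in 20 such groups. Ahi1 was at 183 CPM in P11 mutant 3, where the other mutants had 232 to 240.4 CPM, and at 184 CPM in 3M control 4, where the others had 190.0 to 191 CPM. Cep290 was also low in P11 mutant 3, at 328 CPM against 351 to 353 CPM. Ttc8 was at 28.7 CPM in P11 control 4, where the others had 55.7 to 60.2 CPM. Bbs7 was at 2.69 CPM in 3M mutant 3, where the others had 10.9 to 11.8 CPM. Tmem216 was also low in 3M mutant 3, at 4.04 CPM against 10.5 to 11.3 CPM. Bbs10 was at 6.09 CPM in P11 mutant 4, where the others had 3.93 to 4.02 CPM. B9d1 was at 11.7 CPM in 3M mutant 1, where the others had 6.55 to 7.41 CPM. Arl6 was at 31.7 CPM in P29 control 4, where the others had 25.8 to 26.4 CPM. Tmem237 was at 191 CPM in P29 control 3, where the others had 218 to 220.4 CPM. Ift20 was at 97.4 CPM in 3M mutant 4, where the others had 115 to 117 CPM. Summed cone markers were at 100.3 CPM in 3M control 2, where the others had 69.4 to 71.0 CPM. Summed myelin markers were at 126 CPM in P29 control 1, where the others had 103 to 106 CPM, and at 67.5 CPM in 3M control 4, where the others had 45.6 to 47.1 CPM. Summed blood markers were at 4044 CPM in P29 mutant 1, where the others had 3744 to 3786 CPM.

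The genotype effect at P29 differed from that at P11, by a test of the difference itself, for Mkks (1.78 on the log2 scale, SE 0.51, edgeR adjusted p = 0.0348), for Ahi1 (-0.58, SE 0.15, adjusted p = 0.0176) and, in the list of lipid-anchored cargo genes, for Unc119 (0.50, SE 0.10, adjusted p = 0.000184).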

How the results depend on the processing

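Of 44 calls of a gene in a comparison, 38 were kept under every alternative other than leaving out a library. When any library was left out as well, 31 were kept, and none of 676 values recomputed reversed. The number of genes called at P29 between genotypes was 0, and 2 with DESeq2, 1 with voom and 2 in the fit to the libraries compared. At 3M it was 1, and 2 with DESeq2. For the genotype effect at P29 minus that at P11 it was 2, and 1 without a filter and 1 in the fit to the libraries compared. Leaving out 1 library at a time, the counts ran from 3 to 5 at P11, 0 to 1 at P29 and 1 to 2 at 3M between genotypes, 8 to 12 in controls and 13 to 16 in mutants for P29 against P11, 2 to 4 in controls and 5 to 6 in mutants for 3M against P29, 1 to 2 for the genotype effect at P29 minus at P11 and 0 to 0 at 3M minus at P29. With the replicate number as a block the counts were unchanged, at 5, 0 and 1 between genotypes. No pairing by number was seen, as same-numbered libraries had correlations of -0.0357 to 0.0318 in their deviations from the group means. Correlations over all genes cannot exclude a pairing. Depth limits the low genes most: the SE of a log2 fold change between genotypes reached 0.73. The causes of lost calls were not tested.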
